A study of Homo sapiens with 18 samples.

Results

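Long intergenic noncoding RNAs that carry a LINC number were followed in 2 human acute myeloid leukaemia cell lines exposed to DNA methyltransferase inhibitors. The members were chosen by level: genes annotated as lncRNA in the deposited tables, named LINC plus a number, whose log2 value averaged at least 6 over the 9 samples of a line in at least 1 line. This held for 141 of the 258 LINC-numbered genes listed in either line, and of the 19068 genes listed in all. Of the 141, 105 were listed for both lines, 13 for HL-60 alone and 23 for MOLM-13 alone. HL-60 is a promyelocytic and MOLM-13 a monocytic leukaemia line, and each is 1 established line. Each was kept for 48 h with the solvent dimethyl sulfoxide (DMSO), with decitabine (DAC) or with NTX-301, in 3 replicates per group, 18 samples in all. DAC is a deoxycytidine analogue that traps DNA methyltransferases once built into DNA, and NTX-301 has been described as an inhibitor of DNA methyltransferase 1. The stated concentration is 30 nM in HL-60 cultures and 15 nM in those of MOLM-13, in words that do not show whether it applied to NTX-301 too. Line and stated concentration therefore cannot be told apart.

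Long noncoding RNAs are transcripts that are spliced and often polyadenylated like messenger RNA but encode no known protein. Some keep or recruit chromatin regulators at their own locus, some bind proteins or microRNAs elsewhere in the cell, and for many no function is known. The LINC number is a placeholder that is given when the gene lies between coding genes and nothing better is known about it. Many are expressed in few cell types. Promoters of coding and noncoding genes alike can be rich in CG dinucleotides, the site of DNA methylation in human cells, and the drugs used here act on that methylation.

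Promoter sequences are shown for members on which the drug comparisons below turn, so that their CG content can be read. They come from RefSeq (build GRCh38.p14) and run from 250 bases before to 50 bases after an annotated start, 5′ to 3′ on the gene's strand, with every CG in capitals. LINC01140 is shown at its starts at chr1:87129515-87129814 and chr1:87131676-87131975 (+ strand), with 2 and 17 CG dinucleotides in 300 bases. LINC02256 lies at chr15:32536509-32536808 (+ strand) with 35 CG, and LINC00565 at chr13:113928942-113929241 (- strand) with 9 CG. LINC00205 lies at chr21:45287802-45288101 (+ strand) with 34 CG, and LINC01388 at chr9:113746-114045 (- strand) with 47 CG. No methylation was measured in these samples.
LINC01140, first start: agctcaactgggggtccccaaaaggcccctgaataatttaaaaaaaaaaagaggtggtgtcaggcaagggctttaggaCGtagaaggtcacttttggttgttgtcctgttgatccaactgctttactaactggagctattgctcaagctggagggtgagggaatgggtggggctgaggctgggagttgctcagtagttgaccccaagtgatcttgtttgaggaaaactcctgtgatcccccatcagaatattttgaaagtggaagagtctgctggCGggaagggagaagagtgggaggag
LINC01140, second start: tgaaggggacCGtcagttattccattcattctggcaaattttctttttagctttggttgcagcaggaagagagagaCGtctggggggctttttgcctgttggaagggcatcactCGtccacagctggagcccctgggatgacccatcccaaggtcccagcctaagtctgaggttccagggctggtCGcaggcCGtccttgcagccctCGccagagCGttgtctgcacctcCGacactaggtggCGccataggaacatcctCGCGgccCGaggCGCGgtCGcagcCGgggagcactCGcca
LINC02256: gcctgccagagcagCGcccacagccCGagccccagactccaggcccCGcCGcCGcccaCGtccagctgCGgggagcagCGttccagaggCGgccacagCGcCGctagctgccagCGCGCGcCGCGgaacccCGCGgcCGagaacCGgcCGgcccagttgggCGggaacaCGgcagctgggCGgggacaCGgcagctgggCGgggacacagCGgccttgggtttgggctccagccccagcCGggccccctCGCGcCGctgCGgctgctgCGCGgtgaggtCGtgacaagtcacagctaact
LINC00565: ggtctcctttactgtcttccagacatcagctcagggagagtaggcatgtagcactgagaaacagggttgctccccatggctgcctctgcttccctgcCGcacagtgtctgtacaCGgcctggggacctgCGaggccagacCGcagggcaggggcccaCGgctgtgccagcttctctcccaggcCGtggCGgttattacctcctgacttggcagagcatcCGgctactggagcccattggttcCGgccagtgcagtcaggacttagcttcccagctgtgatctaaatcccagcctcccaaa
LINC00205: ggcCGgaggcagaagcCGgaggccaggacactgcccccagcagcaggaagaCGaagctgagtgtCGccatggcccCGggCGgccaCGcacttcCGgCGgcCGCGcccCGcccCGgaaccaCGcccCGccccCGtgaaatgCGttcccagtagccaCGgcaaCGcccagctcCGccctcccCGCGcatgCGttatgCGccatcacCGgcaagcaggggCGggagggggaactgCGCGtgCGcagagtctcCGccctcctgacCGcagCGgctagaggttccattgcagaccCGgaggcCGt
LINC01388: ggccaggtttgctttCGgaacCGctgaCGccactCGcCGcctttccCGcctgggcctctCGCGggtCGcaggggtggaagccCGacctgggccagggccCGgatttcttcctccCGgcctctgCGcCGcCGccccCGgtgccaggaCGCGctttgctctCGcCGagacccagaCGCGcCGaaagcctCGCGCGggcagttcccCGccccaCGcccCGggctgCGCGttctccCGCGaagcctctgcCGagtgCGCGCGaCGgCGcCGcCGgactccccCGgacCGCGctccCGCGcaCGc

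Of the 141 members, 138 matched RefSeq by NCBI Gene ID, and 102 promoter windows of 89 members were on hand. The median window held 14 CG dinucleotides, as did the median of all 35116 promoters. The motif GGGCGG, read on both strands, was present in 43.1% of the member windows and 45.0% of all promoters. CCAAT was present in 44.1% against 34.6%, TATAAA in 12.7% against 11.5%, and CCGGAAG, the core that ETS factors recognise, in 21.6% against 10.3%. The members were chosen by level and the promoters as a whole were not, so the sets are not matched for expression. None of these motifs contains another, and a match is a string of letters and not a shown binding site.

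The name is not always a good guide to position. Of the matched members, 21 overlapped the span of a coding gene in RefSeq, such as LINC00565 with C13orf46 and LINC02456 with IGF1, and 117 overlapped none. RefSeq now lists 16 under another symbol, among them LINC00565 as SWINGN, LINC00888 as SNHG33, LINC00211 as PIRAT1 and LINC01137 as LITATS1, and it lists LINC00672 as protein coding under the symbol LASP1NB. In GENCODE, 86 members were typed lincRNA, 9 antisense and 8 transcribed unprocessed pseudogene, and 21 were not found. GENCODE typed 2 as protein coding, LINC00672 and LINC02693, the latter of which RefSeq lists as lncRNA. For 33 members a transcript of another gene matched at least 50% of a transcript at 95% identity or more. LINC00623, LINC00869, LINC01138 and LINC01145 are linked by shared sequence, as are LINC00893 and LINC00894, and LINC02256 with GOLGA8M, so reads of these genes could have been split or joined and their values are uncertain. The kit marks strand, but whether the counting used it was not given in the sources used here, so overlapping pairs are uncertain too.

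The value given for every gene is the log2 of a normalized expression value. Low genes vary less on this scale than high ones, so a given log2 difference cannot be compared between a low and a high gene. The lines appear to have been normalized separately, so levels set side by side between lines are a description. Read depth is unknown. All 14 myeloid marker genes, among them MPO and ELANE, averaged at least 6 in both lines. Of 5 erythroid markers, 3 globin genes were listed for MOLM-13 and 0 for HL-60. Among T cell, B cell, epithelial and fibroblast markers, KRT18 (9.36), TRAC (9.15) and CD3D (7.59) also averaged at least 6 in MOLM-13. For HL-60, TRAC (6.75) and CD79A (6.58) did. The ribosomal RNA share of the summed linear values was 0.113 to 0.135% in the MOLM-13 samples with DMSO, 0.158 to 0.217% with DAC and 0.178 to 0.195% with NTX-301. In HL-60 it was 0.361 to 0.423%, 0.363 to 0.489% and 0.533 to 0.678%. The labels call the replicates triplicates and do not say whether they were separate cultures, so p-values measure the spread between these samples, which may be technical.

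The level in a line was what chose the members, so levels carry no test. Values of at least 6 were found for 98 members in HL-60, for 109 in MOLM-13 and for 66 in both. In HL-60, 62 of these lay between 6 and 8, 28 between 8 and 10, and 8 at 10 or more, and in MOLM-13 the numbers were 69, 29 and 11. LINC00926 had the highest line mean in both lines, 12.57 in HL-60 and 13.15 in MOLM-13, followed by LINC01000 with 12.02 and 11.66. Next in HL-60 came LINC00342 (11.01), LINC01215 (10.80), LINC01572 (10.54) and LINC00667 (10.42). Next in MOLM-13 came LINC00674 (11.22), LINC00641 (10.75), LINC00667 (10.62) and LINC00938 (10.44). No correction for transcript length is stated, so this is an order of log2 values and not of molecules per cell.

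Just inside the threshold lay LINC01560 (6.01), LINC01409 (6.05) and LINC00562 (6.06) in HL-60, and LINC01772 (6.01), LINC01637 (6.04) and LINC02361 (6.05) in MOLM-13. Just outside lay LINC02511 (5.96), LINC00597 (5.96) and LINC01094 (5.89) in HL-60, and LINC01191 (5.99), LINC01238 (5.93) and LINC01585 (5.91) in MOLM-13. LINC01238 is a member through its HL-60 mean. With DMSO alone, 138 members averaged at least 6 in a line, and 3 (LINC01772, LINC02361 and LINC02641) reached the threshold through the treated samples.

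Among the 105 members listed for both lines, the DMSO means of 49 lay within 1 log2 unit of each other. For 28 the MOLM-13 mean was higher by more than 1, and for 28 the HL-60 mean was. LINC01215 averaged 10.80 in HL-60 and 5.63 in MOLM-13 over the 9 samples, and LINC01684 (8.80 and 4.65), LINC00539 (8.66 and 4.97) and LINC01961 (7.39 and 3.63) lay on the same side. On the other side were LINC00977 (4.53 and 9.41), LINC02456 (4.53 and 9.20), LINC02256 (5.05 and 9.27), LINC00963 (5.78 and 9.70) and LINC02700 (4.17 and 8.10).

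**Figure D1:**
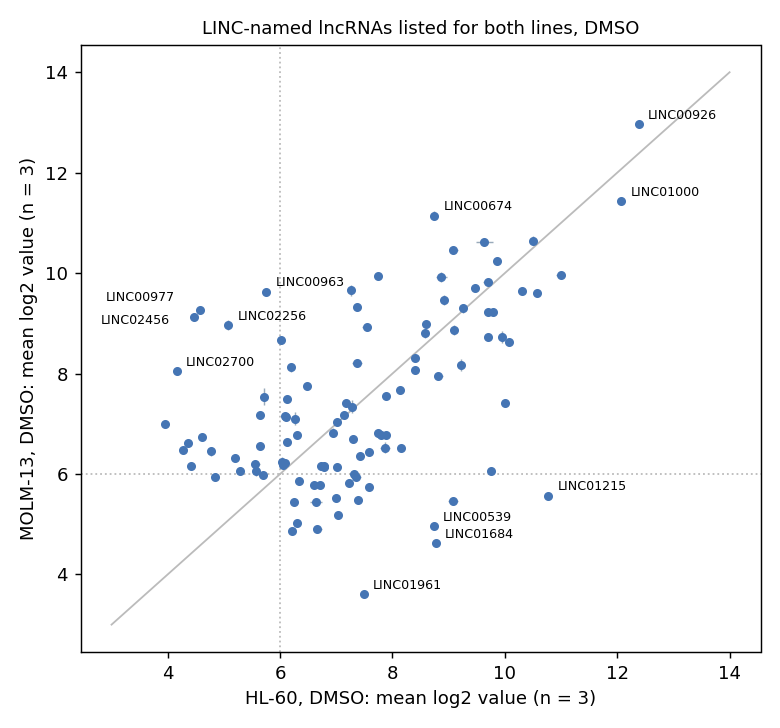
Mean log2 value with DMSO (n = 3, bars: SD) of the 105 members listed for both lines, HL-60 on the horizontal and MOLM-13 on the vertical axis; the dotted lines mark 6 and the solid line marks equal values. LINC00926 and LINC01000 lie at the top in both lines, while LINC01215 and LINC00977 lie far from the line of equal values on opposite sides.

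The 13 members listed for HL-60 alone were LINC00665 (line mean 8.14), LINC01515 (7.84), LINC01184 (7.80), LINC01535 (7.64), LINC02870 (7.46), LINC00701 (7.32), LINC02666 (7.06), LINC00958 (7.05), LINC02645 (6.93), LINC01222 (6.90), LINC01534 (6.89), LINC02595 (6.70) and LINC02246 (6.39). The 23 listed for MOLM-13 alone were led by LINC00899 (9.37), LINC00482 (8.38), LINC02610 (7.90), LINC00847 (7.90), LINC02705 (7.62), LINC00563 (7.27), LINC00900 (7.17) and LINC00968 (7.13). Between 6 and 7 were LINC01588 (6.87), LINC02449 (6.81), LINC00886 (6.79), LINC01617 (6.73), LINC01137 (6.66), LINC01451 (6.52), LINC02724 (6.46), LINC00498 (6.33), LINC01480 (6.31), LINC02642 (6.26), LINC00211 (6.23), LINC01954 (6.05), LINC02361 (6.05) and LINC01637 (6.04), and LINC00278 was the other. A gene missing from a line's tables has no value there, and nothing is known of its level in that line.

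Replicates lay close together. The median SD of the members within a group ranged over the groups from 0.039 to 0.042 in HL-60, while for MOLM-13 it ranged from 0.053 to 0.065, and the widest single SD was 0.23 (LINC00630, MOLM-13 with NTX-301).

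The first comparison asked which members each drug changed against DMSO. All listed members could be tested, 118 in HL-60 and 128 in MOLM-13. Over the 4 comparisons of a drug with DMSO, 76 members passed the test (limma, adjusted p under 0.05) at least once and 65 did not pass in any. LINC00926 and LINC01140 rose in all 4, and 0 members fell in all 4. These counts over the 4 comparisons were not made for all genes, so they are not shown to be a trait of the members. In the single comparisons, between 24.2% and 45.1% of all genes passed. In bulk RNA such as this, fewer cells of a type and less RNA per cell cannot be told apart.

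MOLM-13 members that changed mostly rose. With NTX-301, 56 of 128 members (43.8%) passed the test, 50 higher and 6 lower, against 45.1% of all genes tested (20.3% higher, 24.8% lower) and 54.8% of genes with a mean of at least 6 (22.5% higher, 32.2% lower). With DAC, 31 of 128 (24.2%) passed, 28 higher and 3 lower, against 36.6% of all genes (15.4% higher, 21.2% lower) and 45.2% of those with a mean of at least 6 (17.7% higher, 27.5% lower). Of the 109 members with a mean of at least 6 in MOLM-13, 47 rose and 5 fell with NTX-301, and 26 rose and 2 fell with DAC. The MOLM-13 rises counted here and below include LINC02641, which reached the threshold only through treated samples. Its rises there are therefore not independent of the choice of members. The median log2 change of the 128 members was 0.11 with NTX-301 and 0.07 with DAC, and that of all genes was 0.0034 and 0.0013. The groups did not overlap for 68 members with NTX-301 (53.1%) and 52 with DAC (40.6%), against 55.8% and 47.9% of all genes. So the share of members that changed was near or under the background, and the balance of rises over falls was the other way round. After quantile normalization within the line the split was 24 higher and 13 lower with NTX-301 and 13 higher and 6 lower with DAC, and after centring on sample medians 42 and 8, and 21 and 7. The ribosomal RNA share was higher in all 6 treated samples than in the 3 with DMSO, and its part in these rises was not tested.

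Rises outnumbered falls among other lncRNA genes too, though with DAC this balance nearly went under quantile normalization. Of the 976 other lncRNA genes with a mean of at least 6 in MOLM-13, 425 rose and 49 fell with NTX-301, and 252 rose and 44 fell with DAC. Quantile normalization made these 240 and 101, and 132 and 102. Protein-coding genes went the other way, with 2251 higher and 4131 lower of 11190 with NTX-301 and 1943 and 3544 with DAC. Coding splits narrowed to 2665 and 3159, and 2257 and 2570, under quantile normalization. Members with a mean from 6 to 8 had a median change of 0.13 with NTX-301, those from 8 to 10 of 0.11 and those at 10 or more of 0.26, with 8 of these 11 called higher and 0 lower. Coding genes of the same levels had medians of 0.10, 0.04 and -0.08. With DAC the medians were 0.07, 0.08 and 0.17 for members and 0.09, 0.04 and -0.06 for coding genes. From 6 to 8, coding genes rose as well, 351 higher and 27 lower with NTX-301 and 321 and 27 with DAC. Members of that class split 28 and 3, and 11 and 1. The highest class holds 11 members, so its median rests on few genes.

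**Figure D2:**
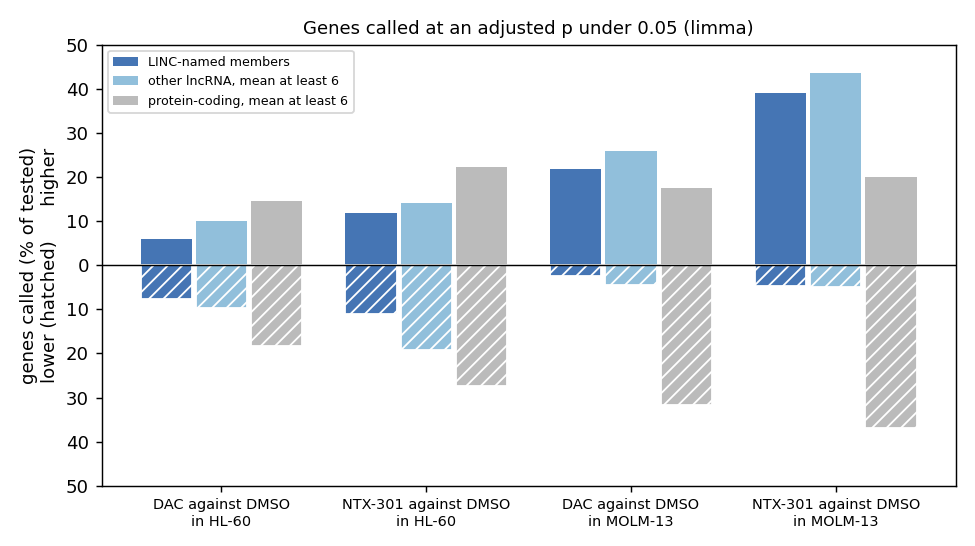
Percent of tested genes called higher (above 0) and lower (hatched, below 0) in 4 comparisons with DMSO (limma, adjusted p under 0.05). LINC-named members are all those tested, some with a mean under 6 in the line. Other lncRNA and protein-coding genes shown have a mean of at least 6. In MOLM-13 39.1% of members rose and 4.69% fell with NTX-301, a balance that quantile normalization narrowed to 24 and 13 members, while in HL-60 rises and falls were close to even, 14 and 13 with NTX-301, but 10 and 34 after centring on sample medians.

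**Figure D3:**
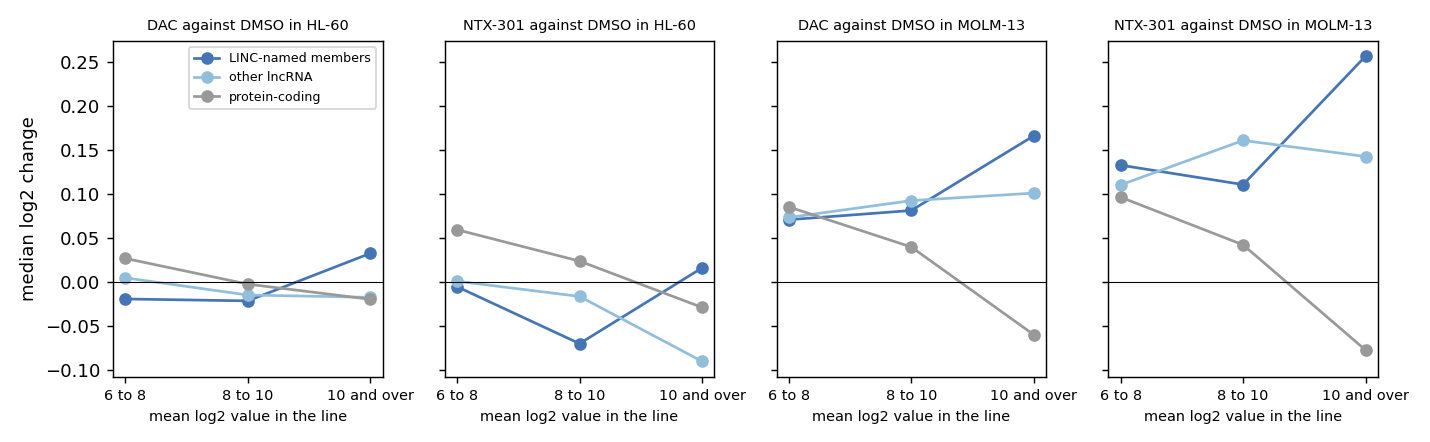
Median log2 change (vertical axis) of members, other lncRNA genes and protein-coding genes in 3 classes of line mean (horizontal axis, log2), one panel per comparison of a drug with DMSO. In the MOLM-13 panels the 2 noncoding sets lie above 0 in each class, and the coding genes fall below 0 at means of 10 and over; the highest class holds 8 members in HL-60 and 11 in MOLM-13.

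LINC01004, a lncRNA next to the gene KMT2E, had the highest change in MOLM-13. Its values were 9.85, 9.81 and 9.82 with DMSO, 10.04, 10.14 and 10.19 with DAC, and 10.31, 10.52 and 10.45 with NTX-301. The 3 groups did not overlap and lay in that order. The rise was 0.60 with NTX-301 (SE 0.054, adjusted p 6.32e-06) and 0.29 with DAC (SE 0.054, adjusted p 0.00127). In HL-60 the values were 9.72, 9.61 and 9.75 with DMSO and 9.66, 9.5 and 9.58 with NTX-301, which overlap (change -0.11, adjusted p 0.0739).

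LINC02256 was next. Its MOLM-13 values were 9.07, 8.96 and 8.87 with DMSO, 9.27, 9.28 and 9.39 with DAC, and 9.57, 9.46 and 9.57 with NTX-301. Again the groups stood apart in the same order. It rose by 0.57 with NTX-301 (adjusted p 1.55e-05) and by 0.35 with DAC (adjusted p 7.12e-04), while all 9 HL-60 values lay between 4.98 and 5.10. The CG-rich window shown above belongs to this gene, and 3 other genes carry a near-identical transcript, so its value may include theirs.

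LINC01451, listed for MOLM-13 alone and next to EGFL7, a secreted protein of the vessel wall, read 6.24, 6.31 and 6.22 with DMSO, 6.51, 6.62 and 6.63 with DAC, and 6.64, 6.75 and 6.74 with NTX-301. The treated samples were all above those with DMSO, with rises of 0.33 (adjusted p 4.94e-04) and 0.45 (adjusted p 3.67e-05). LINC00482, also listed for MOLM-13 alone, had the highest change with DAC, from 8.33, 8.10 and 7.98 with DMSO to 8.55, 8.58 and 8.58. That is a rise of 0.43 (SE 0.081, adjusted p 0.00140). With NTX-301 it read 8.34, 8.47 and 8.52, just clear of the DMSO values, a rise of 0.31 (adjusted p 0.00889) that lost its call after quantile normalization.

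LINC00265 rose from 8.13, 8.0 and 8.06 to 8.28, 8.48 and 8.57 with NTX-301 in MOLM-13, by 0.38 (adjusted p 0.00194), and to 8.26, 8.47 and 8.38 with DAC, by 0.31 (adjusted p 0.00941), a DAC call that quantile normalization ended. LINC00444 rose by 0.35 with NTX-301 (adjusted p 6.42e-04) and by 0.18 with DAC (adjusted p 0.0372). Its DAC call held in 10 of 18 alternatives. Among others, the call was lost after median centring, after quantile normalization, and without DMSO replicate 1 or 2 or DAC replicate 2 or 3. LINC01814, which lies next to ID2, an inhibitor of helix-loop-helix factors, read 6.45, 6.47 and 6.51 with DMSO, 6.63, 6.78 and 6.73 with DAC and 6.80, 6.87 and 6.90 with NTX-301. Its groups did not overlap, and the rises were 0.23 (adjusted p 0.00430) and 0.38 (adjusted p 1.32e-04). Among the higher-valued members, LINC01000 rose by 0.30 with DAC and 0.37 with NTX-301, LINC01410 by 0.24 and 0.32, and LINC00641 by 0.17 and 0.26.

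Few MOLM-13 members fell. LINC00565, which RefSeq lists as SWINGN, overlaps the span of C13orf46. It read 7.06, 6.91 and 7.0 with DMSO, 6.59, 6.56 and 6.64 with DAC, and 6.53, 6.59 and 6.47 with NTX-301. Every treated sample lay below every sample with DMSO. It fell by 0.39 (SE 0.054, adjusted p 1.77e-04) and by 0.46 (adjusted p 3.85e-05), and the overlapping gene C13orf46 passed the test with neither drug (-0.07 and -0.15).

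LINC01963, near the DNA repair gene XRCC5, read 9.60, 9.59 and 9.78 with DMSO, 9.55, 9.37 and 9.35 with DAC and 9.51, 9.47 and 9.39 with NTX-301. It changed by -0.24 (adjusted p 0.0162) and -0.20 (adjusted p 0.0274), calls that were lost without DMSO replicate 3, without replicates 2 or 3 of DAC, and without replicates 2 or 3 of NTX-301. LINC02806 fell by 0.16 with DAC (adjusted p 0.00248) and by 0.17 with NTX-301 (adjusted p 0.00146). With NTX-301, LINC02693 (-0.24, adjusted p 0.00156), LINC00909 (-0.19, adjusted p 0.0171) and LINC01003 (-0.17, adjusted p 0.0273) were lower too. The LINC00909 call was lost without DMSO replicate 2 or 3 or NTX-301 replicate 2, and the LINC01003 call without any of these or NTX-301 replicate 1.

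Of the MOLM-13 members, 28 passed the test with both drugs, 25 higher and 3 lower, and both sets of changes share their DMSO samples. With NTX-301 alone 28 passed, and with DAC alone 3 did, LINC00963, LINC01684 and LINC02642. Among the 23 members listed for MOLM-13 alone, 5 rose with DAC and 8 with NTX-301, and 0 fell. Of all genes there, 15.4% rose and 21.2% fell with DAC, and 20.3% rose and 24.8% fell with NTX-301. The remaining calls with NTX-301 lay between 0.05 (LINC01961) and 0.38 (LINC02863).

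In HL-60 the calls were close to even between rises and falls, a balance that depended on the scaling. With NTX-301, 27 of 118 (22.9%) passed the test, 14 higher and 13 lower, against 37.4% of all genes (18.3% higher, 19.2% lower) and 46.2% of genes with a mean of at least 6 (21% higher, 25.2% lower). With DAC, 16 of 118 (13.6%) passed, 7 higher and 9 lower, against 24.2% (11.6% higher, 12.6% lower) and 30.7% (14% higher, 16.7% lower). Of the 98 members with a mean of at least 6 there, 11 rose and 13 fell with NTX-301, and 6 rose and 8 fell with DAC. The median change of the 118 members was -0.01 with NTX-301 and -0.02 with DAC. The groups did not overlap for 43 members with NTX-301 (36.4%) and 39 with DAC (33.1%), against 47.2% and 38.5% of all genes. After centring on sample medians the NTX-301 split was 10 higher and 34 lower, and after quantile normalization 11 and 32, with 4 and 15 for DAC. The DAC count fell to 9 without DMSO replicate 3 or DAC replicate 1 and to 10 without DMSO replicate 2. Both drugs passed for 10 members, 6 higher and 4 lower, a count that was not made over all genes.

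LINC00958, listed for HL-60 alone and also known as a bladder cancer associated transcript, had the highest change of any member in HL-60. It read 6.72, 6.77 and 6.77 with DMSO, 7.37, 7.47 and 7.48 with DAC, and 6.94, 6.98 and 6.98 with NTX-301. The 3 groups were fully separate, with DAC at the top. It rose by 0.68 with DAC (SE 0.038, adjusted p 1.83e-08) and by 0.22 with NTX-301 (adjusted p 4.13e-04). RASSF10 is the nearest coding gene in RefSeq but was not among the genes tested. The nearest one tested, the clock factor BMAL1, rose by 0.19 with DAC (adjusted p 0.0016) and by 0.22 with NTX-301 (adjusted p 2.3e-04).

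LINC01140 followed, with 6.02, 6.00 and 6.00 with DMSO, 6.51, 6.41 and 6.42 with DAC and 6.24, 6.18 and 6.24 with NTX-301. No group overlapped another, and DAC was again the higher. The rises were 0.44 (SE 0.034, adjusted p 7.12e-07) and 0.21 (adjusted p 2.12e-04). MOLM-13 had a higher level, and it rose there as well, from 8.66, 8.70 and 8.64 with DMSO to 8.98, 9.16 and 8.88 with DAC and 9.01, 8.92 and 9.06 with NTX-301. These were 0.34 (SE 0.068, adjusted p 0.00210) and 0.33 (adjusted p 0.00194), and the neighbour HS2ST1, a heparan sulfate sulfotransferase, moved by -0.09 and -0.13. The difference in effect between the lines did not pass the test for DAC (-0.10, adjusted p 0.375) or NTX-301 (0.12, adjusted p 0.264). A near-identical transcript is annotated under another name for this gene as well.

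LINC00926, reported elsewhere to act on the glycolytic enzyme PGK1 in breast cancer cells, read 12.42, 12.34 and 12.40 in HL-60 with DMSO, 12.71, 12.72 and 12.65 with DAC, and 12.62, 12.65 and 12.66 with NTX-301. In MOLM-13 it read 13.00, 12.95 and 12.93, then 13.19, 13.22 and 13.24, then 13.30, 13.29 and 13.26. Every treated sample was above every DMSO sample of its line. It rose by 0.31 (adjusted p 2.99e-06) and 0.26 (adjusted p 5.86e-06) in HL-60 and by 0.26 (adjusted p 1.68e-05) and 0.32 (adjusted p 2.38e-06) in MOLM-13, DAC first. The effects did not pass a test of a difference between the lines (adjusted p 0.346 for DAC and 0.176 for NTX-301). Its neighbour TCF12, a helix-loop-helix transcription factor, went up by 0.16 with DAC in HL-60 (adjusted p 4.6e-05) and down by 0.14 in MOLM-13 (adjusted p 8.1e-04).

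With NTX-301 in HL-60 the rises were led by LINC02641 (0.26, adjusted p 8.57e-05) and LINC02210 (0.26, adjusted p 3.84e-05). LINC02641 averaged under 6 in HL-60, where values vary less, so its change cannot be ranked against that of LINC02210. LINC02210, which forms part of the readthrough gene LINC02210-CRHR1, read 9.24, 9.21 and 9.24 with DMSO, 9.35, 9.26 and 9.33 with DAC, and 9.47, 9.5 and 9.49 with NTX-301. The NTX-301 samples lay above all others, and the DAC change was not called. Smaller rises were seen for LINC00674 (0.21), LINC00265 (0.20), LINC00869 (0.20) and LINC00665 (0.20).

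Falls with NTX-301 were led by LINC01388 and LINC00205. LINC01388 read 9.13, 9.14 and 8.98 with DMSO, 9.08, 9.10 and 8.99 with DAC, and 8.77, 8.81 and 8.83 with NTX-301. The DMSO and DAC groups overlap and the NTX-301 samples lie below both, a fall of 0.28 against DMSO (SE 0.047, adjusted p 2.86e-04). LINC01961 fell by 0.26 (adjusted p 0.00153), LINC02728 by 0.21 (adjusted p 0.00496) and LINC00667 by 0.18 (adjusted p 0.00185).

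With DAC in HL-60 the largest fall was that of LINC00205 (-0.18, adjusted p 0.00223), followed by LINC01311 (-0.15, adjusted p 0.0381), LINC00539 (-0.15, adjusted p 0.0133) and LINC02666 (-0.15, adjusted p 0.0157). LINC02693 rose by 0.13 (adjusted p 0.0240). The LINC02693 call was lost without DMSO replicate 3 or any 1 of the DAC replicates. The LINC01311 call was lost without DMSO replicate 2 or 3 or DAC replicate 1 among others, the LINC00539 call without DAC replicate 1, and the LINC02666 call without DMSO replicate 3 or DAC replicate 1.

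**Figure D4:**
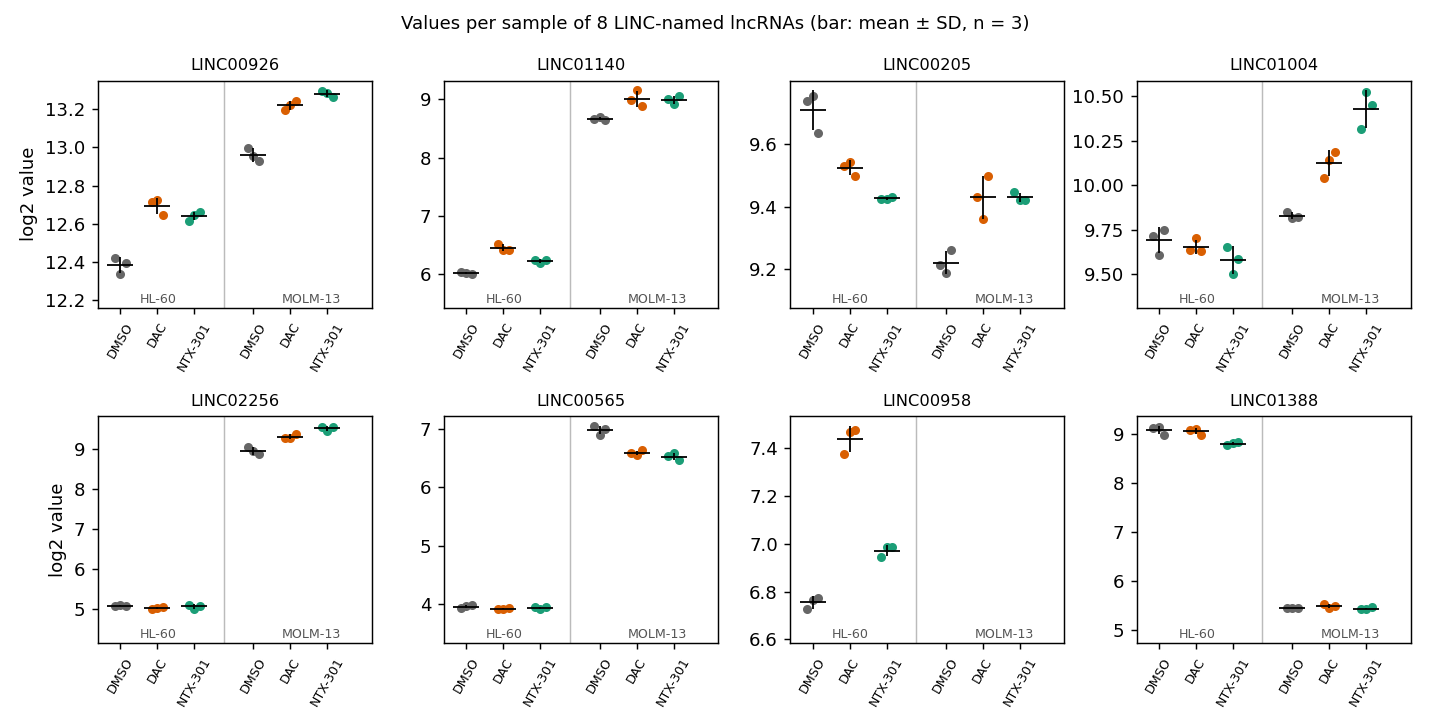
Log2 value per sample (points, n = 3 per group) with mean and SD (bars) of 8 members, by line and treatment; LINC00958 is listed for HL-60 alone, and the vertical axes differ between panels and do not start at 0. LINC00926 and LINC01140 are higher with both drugs in both lines, LINC00205 is lower with both drugs in HL-60 and higher in MOLM-13, and LINC01004 rises in MOLM-13 from near 9.83 to near 10.43.

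The next comparison set NTX-301 directly against DAC within a line, at the stated concentrations. In HL-60, 21 members (17.8%) passed the test, 9 higher and 12 lower with NTX-301, against 30.4% of all genes (15.4% higher, 15% lower) and 38.2% of those with a mean of at least 6 (18.8% higher, 19.4% lower). Of the 98 members with a mean of at least 6 there, 7 were higher and 12 lower. After centring on sample medians the split of all 118 members was 5 and 23. The groups did not overlap for 44 members (37.3%), against 44.4% of all genes. Lower under NTX-301 were LINC00958 (-0.47, adjusted p 6.81e-07), LINC01388 (-0.25, adjusted p 9.54e-04), LINC01140 (-0.23, adjusted p 1.93e-04) and LINC01961 (-0.22, adjusted p 0.00625). LINC00265 (0.18, adjusted p 0.00868), LINC02641 (0.18, adjusted p 0.00272), LINC02210 (0.17, adjusted p 0.00168) and LINC00649 (0.16, adjusted p 0.00318) were the highest on the other side. Of these, LINC02641 averaged under 6 in HL-60.

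In MOLM-13, 6 members (4.69%) passed that test, against 7.42% of all genes (3.01% higher, 4.41% lower) and 9.31% of those with a mean of at least 6 (3.65% higher, 5.66% lower). All 6 were among the 109 members with a mean of at least 6 there. The groups did not overlap for 27 members (21.1%), against 27.3%. LINC01004 was higher with NTX-301 by 0.30 (SE 0.054, adjusted p 0.00795), LINC01572 by 0.24 (adjusted p 0.0372), LINC02256 by 0.22 (adjusted p 0.0435), LINC01694 by 0.20 (adjusted p 0.0242) and LINC00674 by 0.17 (adjusted p 0.0375). LINC02693 stood on the other side (-0.22, adjusted p 0.0188). LINC01004 is the 1 member whose call held in every alternative that was run. Of the 9 fits that left out a replicate, LINC02256 lost its call in 6, LINC01572 and LINC00674 in 5 each, and LINC01694 and LINC02693 in 3 each. The count went to 1 without NTX-301 replicate 2 or 3, to 2 without DAC replicate 1 and to 3 without DAC replicate 2.

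A single fit of the 18 samples compared each drug's effect in MOLM-13 with that in HL-60 for the 105 members listed for both. For NTX-301 the difference passed for 40 members (38.1%), 36 with the higher effect in MOLM-13 and 4 with the higher effect in HL-60, against 40% of all genes (17.6% and 22.4%) and 47% of genes with a mean of at least 6 in both (18.9% and 28.1%). For DAC it passed for 20 (19%), 18 and 2, against 30% (12.1% and 17.9%) and 35.7% (13.1% and 22.5%). Among the 66 members with a mean of at least 6 in both, the NTX-301 difference passed for 26 (24 and 2). For DAC it passed for 12 of the 66 (12 and 0). The median difference over the 105 members was 0.10 for NTX-301 and 0.08 for DAC. After centring on sample medians the DAC split was 14 and 7, and after quantile normalization 12 and 4.

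LINC01004 had the widest difference for NTX-301 (0.71, SE 0.075, adjusted p 5.21e-07), then LINC02256 (0.59, adjusted p 2.61e-06), LINC00205 (0.49, adjusted p 1.47e-06) and LINC00444 (0.48, adjusted p 3.15e-04). For DAC the order was LINC01000 (0.43, adjusted p 1.07e-04), LINC02256 (0.40, adjusted p 2.52e-04), LINC00205 (0.39, adjusted p 3.34e-05) and LINC01004 (0.33, adjusted p 0.00245). In the other direction stood LINC00565, with -0.44 for NTX-301 (adjusted p 8.53e-07) and -0.36 for DAC (adjusted p 1.78e-05). Its HL-60 values lay near 3.9, a range in which values vary little on this scale. LINC02806 differed by -0.22 for DAC (adjusted p 0.00616), and LINC02210 by -0.22 (adjusted p 0.0213), LINC02693 by -0.18 (adjusted p 0.0194) and LINC01670 by -0.14 (adjusted p 0.0177) for NTX-301. These 3 calls for NTX-301 were each lost in 2 or 3 fits without a replicate, among them HL-60 NTX-301 replicate 1 for LINC02693 and LINC01670 and MOLM-13 DMSO replicate 2 for LINC02210 and LINC01670.

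LINC00205 changed in opposite directions in the lines. In HL-60 it read 9.74, 9.75 and 9.63 with DMSO, 9.53, 9.54 and 9.5 with DAC and 9.42, 9.42 and 9.43 with NTX-301. In MOLM-13 it read 9.21, 9.19 and 9.26, then 9.43, 9.36 and 9.5, then 9.45, 9.42 and 9.42. The DMSO values stood apart from both treated groups in each line, above them in HL-60 and below them in MOLM-13. DAC and then NTX-301 changed it by -0.18 and -0.28 in HL-60, and by 0.21 and 0.21 in the other line (adjusted p 0.00223, 3.02e-05, 0.00404 and 0.00309). The nearest coding gene, POFUT2, a protein fucosyltransferase, passed the test in none of the 4 (changes between 0.01 and 0.10). The MOLM-13 call with DAC was lost after quantile normalization.

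In all, 7 members passed the test upward in 1 comparison with DMSO and downward in another. The same count was not made over all genes. LINC01000 fell with DAC in HL-60, from 12.13, 12.02 and 12.07 to 11.90, 11.99 and 11.92 (-0.13, adjusted p 0.0101), and rose with DAC in MOLM-13, from 11.53, 11.37 and 11.41 to 11.66, 11.76 and 11.78 (0.30, adjusted p 0.00133). The groups did not overlap in either line. LINC02100 fell by 0.16 with NTX-301 in HL-60 (adjusted p 0.00671) and rose by 0.19 in MOLM-13 (adjusted p 0.0135). LINC01694 did the same, with -0.16 (adjusted p 0.00413) and 0.16 (adjusted p 0.0126), at levels near 9.7 in HL-60 and 6.1 in MOLM-13. Quantile normalization ended the MOLM-13 calls of both, and that of LINC01694 was also lost without NTX-301 replicate 2. The others were LINC01961, LINC02693 and LINC02803.

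Of the members listed for both lines, 8 rose with NTX-301 in both (LINC00265, LINC00623, LINC00674, LINC00893, LINC00926, LINC01140, LINC01814 and LINC02641), 1 fell in both (LINC01963) and 4 fell in HL-60 and rose in MOLM-13. These are 7.62%, 0.952% and 3.81% of the 105, against 6.05%, 10.5% and 2.71% of the 15474 genes tested in both lines. With DAC, 2 rose in both, 0 fell in both and 2 fell in HL-60 and rose in MOLM-13, which is 1.90%, 0% and 1.90% against 3.46%, 6.17% and 1.49%. Not all of these calls are firm. LINC02641 became a member only through treated samples, so its MOLM-13 rise is not independent of the choice. The MOLM-13 rise of LINC01961 (0.05) held in 6 of 17 alternatives, LINC00623 in 11 of 18 for HL-60 and 9 of 18 for MOLM-13, and LINC00893 in 10 of 18 for HL-60.

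**Figure D5:**
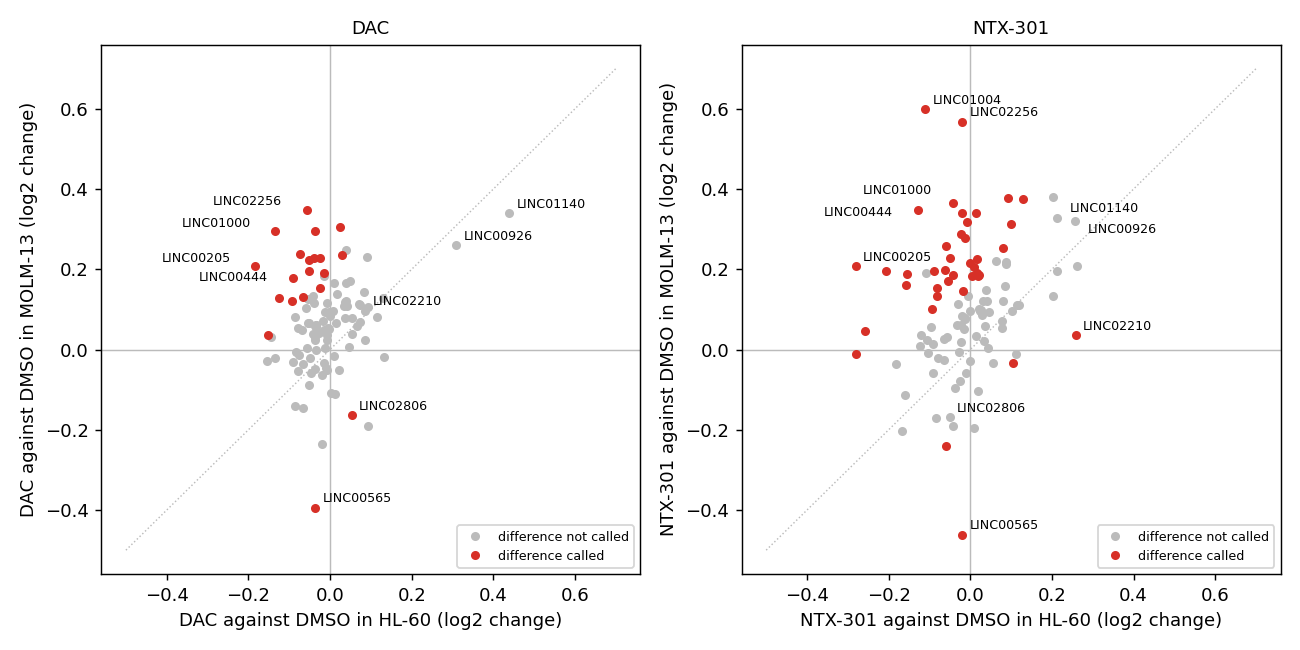
Log2 change against DMSO in HL-60 (horizontal) and MOLM-13 (vertical) of the 105 members listed for both lines, DAC on the left and NTX-301 on the right; red points passed the test of a difference between the lines, and the dotted line marks equal changes. Most red points lie above the dotted line, while LINC00926 and LINC01140 are near it and LINC00565 is far below; centring on sample medians left 14 DAC differences above and 7 below.

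Position was not used to choose the members, so each was set beside the nearest coding gene that was tested in the same line. For the 126 MOLM-13 members with such a neighbour in the tables, the changes with NTX-301 had a Pearson's r of 0.16 across genes, and with DAC of 0.07. In HL-60 the values were -0.02 and 0.23 over 115 members. Members are not independent replicates, and the 2 genes of a pair share the libraries. Of the 55 members called with NTX-301 in MOLM-13 that had a neighbour, 37 had a called neighbour, 18 of them in the same direction, while 53.6% of all 12191 coding genes tested were called. The pairs named next were picked after their values were seen, and each moved in opposite directions, unlike those 18. LINC00641, next to the splicing factor gene HNRNPC, rose by 0.26 with NTX-301 while HNRNPC moved by -0.26. LINC02693 fell by 0.24 while MAP2K3, a kinase of the p38 pathway and the nearest gene tested (KCNJ12 lies nearer but was not tested), moved by 0.26. LINC00674 rose by 0.19 and the nuclear import gene KPNA2 moved by -0.29.

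Nor was sequence used to choose them. In MOLM-13, the 20 members that rose with DAC and have a promoter window held a median of 10.5 CG dinucleotides in it, and the 58 that were not called held 20.5. The 2 that fell with DAC held a median of 6. With NTX-301 the medians were 14 for the 29 that rose, 18.5 for the 4 that fell and 18 for the 47 not called. In HL-60 the order differed. There the 4 members that rose with DAC had a median of 19.5, the 4 that fell of 21 and the 65 not called of 16. With NTX-301 the medians were 19.5 for 10 that rose, 27 for 6 that fell and 16 for 57 not called. For members with several windows the one richest in CG was counted. These are descriptions of windows of fixed size, without a test. Of the 31 MOLM-13 members with a near-identical transcript elsewhere, 17 rose and 0 fell with NTX-301, and of the other 97, 33 rose and 6 fell. With DAC the shares lay closer, with 7 higher and 0 lower of the 31 and 21 higher and 3 lower of the 97.

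Other named long noncoding RNAs were looked up for comparison in a list of 40. With NTX-301 in MOLM-13, 11 of the 32 tested rose and 10 fell, with a median change of 0.03, and with DAC 11 rose and 5 fell. In HL-60, 5 of 30 rose and 14 fell with NTX-301, and 3 rose and 13 fell with DAC. NEAT1, the scaffold of paraspeckles, rose by 0.90 with NTX-301 in MOLM-13 and fell by 0.44 in HL-60. MALAT1, a nuclear speckle RNA, rose by 0.57 and fell by 0.12. Small nucleolar RNA hosts such as SNHG1 (-0.30 and -0.22) and SNHG12 (-0.22 and -0.24) were lower in both lines with NTX-301. Other hosts were not: GAS5 rose in both (0.13 and 0.06), SNHG8 rose in HL-60 (0.07), and SNHG6 was called in neither. These calls were not repeated under the other scalings.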

How the data were processed

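Stranded total RNA libraries of 18 samples were used, 3 per group, grouped by the titles in the labels. The authors deposited 1 file per sample with a normalized log2 value per gene. Per the submitters' processing notes, FastQC, Trimmomatic 0.38, HISAT2 and StringTie were used with build hg19, and how the values were normalized was not given in the sources used here. Read depth is unknown, so precision rests on the spread between replicates.

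Tested were genes that reached 1 on the linear scale in 3 or more samples, 17046 in HL-60 and 17475 in MOLM-13. The 9 samples of a line were fitted together with limma 3.58.1 in R 4.3.3 (lmFit and trended eBayes, two-sided tests). Benjamini-Hochberg adjustment ran over the genes of each fit, and an adjusted p under 0.05 counted as a call. Differences between lines came from 1 fit of 18 samples over 15474 genes. The steps were tested on simulated data.

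The members and lists were chosen with earlier results of these data known. Named were the 4 highest and 4 lowest called changes per comparison without overlap, members called one way in all 4 comparisons with DMSO, the 6 highest means per line, members listed for 1 line and those nearest the threshold. Members named beyond this rule, such as LINC01814, LINC00641 and LINC01410, and the genes named from the list of 40, were chosen after their values were seen. RefSeq (GRCh38.p14) gave names, neighbours and promoters, matched by NCBI Gene ID, and near-identical transcripts were sought in GENCODE with blastn. Alternatives were median centring, quantile normalization, no trend, fewer groups in the fit, a replicate block, pseudocounts of 1 and 16, other filters, other member thresholds of 5 and 7, and leaving out each replicate.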

Additional observations from a re-analysis of the deposited data

Results flagged for a closer look

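Effects of a drug that differed between the lines were picked out by the test of the difference itself (limma, 18 samples, 105 members). It passed for 20 members (19%) with DAC and for 40 (38.1%) with NTX-301. Of all 15474 genes tested in both lines, 30% and 40% passed, so neither share of members was above that background.

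For DAC the effect in MOLM-13 was above that in HL-60 by 0.43 for LINC01000, 0.40 for LINC02256, 0.39 for LINC00205 and 0.33 for LINC01004 on the log2 scale. It was below it for LINC00565 (-0.36) and LINC02806 (-0.22).

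For NTX-301 it was above by 0.71 for LINC01004, 0.59 for LINC02256, 0.49 for LINC00205 and 0.48 for LINC00444. It was below for LINC00565 (-0.44), LINC02210 (-0.22), LINC02693 (-0.18) and LINC01670 (-0.14). LINC02256 and LINC00565 have low values in HL-60, a range in which values vary less on this scale.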

How the results depend on the processing

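No change called in the fit reported reversed its sign under any alternative run. Members first called under an alternative were not checked for this. Quantile normalization changed the counts of called members to 43 for NTX-301 in HL-60 (27 in the fit reported), 19 for DAC in MOLM-13 (31) and 37 for NTX-301 in MOLM-13 (56). Centring on sample medians gave 44 for NTX-301 in HL-60. Of members with a mean of at least 7, 37 were called with NTX-301 in MOLM-13, where fewer members were counted. With only genes of mean at least 6 tested, 26 differed between lines for NTX-301, since fewer members were tested. Leaving out 1 replicate at a time gave 9 to 15 for DAC and 23 to 28 for NTX-301 in HL-60, 21 to 33 and 42 to 58 in MOLM-13, 15 to 23 and 1 to 6 for NTX-301 against DAC in HL-60 and MOLM-13, and 16 to 24 and 32 to 42 for the differences between lines. Deviations of same-numbered samples were weakly correlated (between -0.16 and 0.12), which does not show whether the samples were paired. With a replicate block, NTX-301 against DAC in MOLM-13 called 3 members (2 higher, 1 lower). The block moved no other count of called members by more than 1.5 times. The cause of these shifts was not tested. Calls held in every alternative for 26 of 56 members with NTX-301 and 15 of 31 with DAC in MOLM-13, and for 18 of 27 and 5 of 16 in HL-60. Unknown depth and the compressed scale limit what can be said of low members.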
